A study of Homo sapiens with 15 samples.

Results

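P493-6 cells given MYCi975 were compared with P493-6 cells given its solvent, DMSO. P493-6 is an established human B cell line with an introduced MYC gene that tetracycline turns off. The labels class it as a Burkitt lymphoma line with overexpressed c-MYC. That class is the labels' own and was not examined here. MYCi975 is a small molecule made as an inhibitor of MYC, and the comparison asks how the transcripts of these cells changed under it. By their labels, 6 of the 15 RNA libraries of the study belong here: 3 from cells kept for 24 h with 6 µM MYCi975 dissolved in DMSO, and 3 controls. The treatment label of the controls reads none, and the treatment protocol gives DMSO for control groups. The labels name tetracycline for neither group, and both carry the introduced MYC gene. Both groups grew in RPMI medium with fetal bovine serum. MYC in this line is driven by an introduced, inducible gene and not only by its own regulatory DNA, and 1 line, 1 dose and 1 time were measured. Separate cultures are not stated for the 3 libraries of a group, and a p-value therefore reflects library spread that may be technical.

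The libraries held 9774101 to 12212555 reads, of which 9753699 to 12185659 lay on the 12998 listed genes. Levels are CPM, the reads on a gene scaled to a fixed library total, so a rise or fall is relative to the other genes, and the amount of RNA per cell was not measured. A log2 fold change is the difference of the group means of log2(CPM + 1), MYCi975 minus DMSO, with its standard error (SE), and understates the change of genes at a few CPM. A number alone in parentheses after a gene is its log2 fold change. A gene rose or fell where limma's Benjamini-Hochberg adjusted p, over all 12998 genes, was below 0.05. TMM factors are a scaling between libraries that sets the bulk of genes level, and were used as a second test. Groups "did not overlap" where all 3 libraries of one group lay above all 3 of the other.

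MYC is a transcription factor that pairs with MAX, binds E-box sites and is known for driving genes of ribosome assembly, nucleotide synthesis, chaperones and cell division. Proteins of the MXD family compete with it for MAX. In B cells MYC is a main driver of growth after activation. Its rearrangement is the hallmark of Burkitt lymphoma, and whether this line carries one was not examined.

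The libraries carried the transcripts of B cells. All 10 B cell markers were measured, with MS4A1, the gene of CD20, at 897, 883 and 873 CPM with DMSO and 935, 918 and 967 CPM with MYCi975. The summed level of these markers was 4180 to 4410 CPM with DMSO and 4710 to 5047 CPM with MYCi975, and 5 rose, among them CD22 (0.36), CD79A (0.28) and BLK (0.26). Of the 8 plasma cell markers, all measured, only XBP1 was called (0.41). Listed markers of other cell types were low beside these. Of 12 T cell markers 5 were listed, with sums of 25.7 to 27.6 CPM and 23.7 to 27.2 CPM in the DMSO and MYCi975 groups, and TRAC fell (8.63, 7.53 and 6.85 against 4.62, 5.03 and 5.59 CPM). NK cell markers (2 of 8 listed) summed to 2.91 to 4.26 and 3.49 to 5.63 CPM, monocyte and macrophage markers (2 of 10) to 8.43 to 10.6 and 8.78 to 12.4 CPM, and fibroblast markers (2 of 8) to 10.2 to 12.2 and 11.97 to 14.6 CPM. Of 12 markers of prostate epithelium, the tissue of the other line of the study, 2 were listed, EPCAM (10.7, 11.1 and 11.9 against 13.3, 13.9 and 14.3 CPM) and KRT7 (1.07, 1.31 and 0.512 against 0.171, 0.79 and 0.3 CPM). Every listed gene exceeded 1 CPM in at least 2 libraries, and markers that were not listed, KRT5, KRT8, KRT18 and KRT19 among them, were not analysed here. The part of other cells in any result was not tested.

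MYC itself did not fall. Its levels were 4692, 4701 and 4791 CPM with DMSO and 5138, 5084 and 5132 CPM with MYCi975 (log2 fold change 0.11, SE 0.0322, adjusted p = 0.00535). Each MYCi975 library was above each DMSO library. MAX stood at 79.1, 81.96 and 83.6 against 81.1, 83.6 and 83.6 CPM and passed no test (adjusted p = 0.81). Of 12 measured genes of the MYC network, 3 rose and 0 fell. Besides MYC these were MXD1 (2.42, 2.62 and 1.94 against 4.02, 3.75 and 4.59 CPM) and MXI1 (49.9, 49.3 and 45.4 against 61.7, 64.9 and 64.6 CPM), both coding for proteins that compete with MYC for MAX. The groups did not overlap for either gene. MNT and MGA, which also pair with MAX or its relatives, had log2 fold changes of −0.06 and 0.04 and passed no test.

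Across all genes 3713 were called, 28.6% of those tested, with 1375 that rose (10.6%) and 2338 that fell (18.0%). With TMM factors 3509 were called (27.0%), with 1819 that rose (14.0%) and 1690 that fell (13.0%). All 1375 genes that rose also rose with TMM factors, 1688 of the falls remained, and no gene was called in opposite directions. The median log2 fold change of all genes was −0.042 on CPM and −0.0011 with TMM factors, a shift that moves the balance of rises and falls. Changes were small. Of the called genes 87.6% moved by less than 0.5 on the log2 scale, and changes of 2-fold or more were 22 rises and 6 falls. The groups did not overlap in 40.0% of genes (15.2% higher and 24.8% lower with MYCi975). The first principal component held 60.2% of the variance and separated the groups, and replicate libraries correlated with r of 0.9948 to 0.9956.

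The direction of the calls varied with a gene's level. Above 500 CPM, 41.0% of 251 genes rose and 32.3% fell. From 100 to 500 CPM, 14.4% of 1816 genes rose and 40.4% fell. The genes that rose took 24.0% to 24.5% of reads with DMSO and 29.1% to 29.6% with MYCi975, and those that fell took 31.1% to 32.1% and then 26.5%. These shares describe genes chosen by the same values. Among the 10 called genes with the highest levels were EEF1A1, EEF2, RPL13A, RPS6, RPLP0, MT-CO1 and MYC, which all rose, and HSP90AB1, which fell. E-box letters, CACGTG, which read the same on both strands, were present in 11.8% of 8921 protein-coding genes with a RefSeq promoter (250 bases before to 50 after the start, GRCh38.p14) and in 6.34% of all 35116 RefSeq promoters. Of the genes with them 10.5% rose and 20.2% fell, and of those without 11.3% rose and 20.7% fell.

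**Figure D1:**
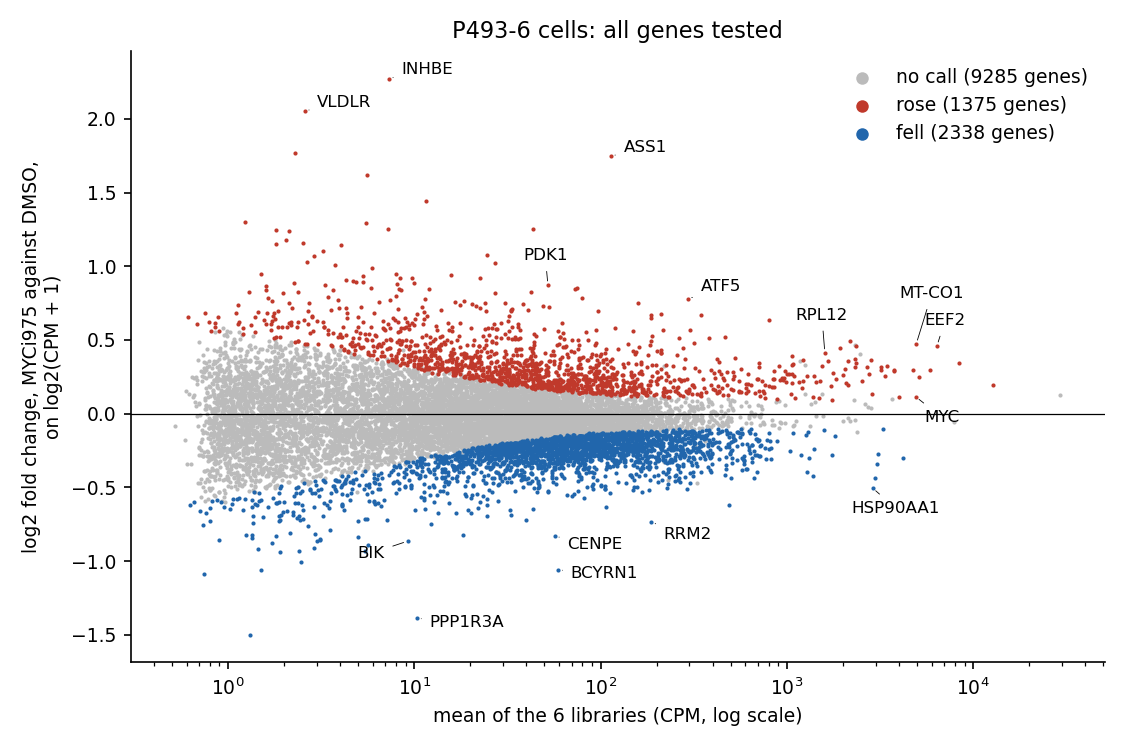
Each point is 1 of the 12998 genes, with its mean CPM over the 6 libraries on the horizontal log axis and its log2 fold change on log2(CPM + 1) on the vertical axis. Red points rose and blue points fell at an adjusted p below 0.05, and grey points were not called. INHBE (2.27) stands highest of the labelled genes, MYC (0.11) lies near 0, and blue points are most frequent from 100 to 500 CPM, where 40.4% of genes fell.

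The translation machinery moved in both directions. Most genes for proteins of the cytosolic ribosome rose, while most genes that assemble the ribosome in the nucleolus and part of the mitochondrial ribosomal protein and initiation factor genes fell. Of 83 cytosolic ribosomal protein genes, 71 rose and 1 fell. Their median was 0.22 on the log2 scale, against −0.042 for all genes. Together they made 96036, 99890.4 and 98665 CPM with DMSO and 118777, 116578 and 113364 CPM with MYCi975, an increase of 18.4% without overlap. RPL12, of the large subunit, was at 1338, 1392 and 1390.2 CPM with DMSO and 1834, 1879 and 1769 CPM with MYCi975 (log2 fold change 0.41, SE 0.0358, adjusted p = 1.95e-12). RPS2, of the small subunit, was at 1983, 1982 and 2106 against 2728, 2681 and 2438 CPM (0.37). For both genes every MYCi975 library lay above every DMSO library. RPS18 (0.36), RPL13 (0.35), RPL3 (0.33) and RPSA (0.32) rose by similar amounts. The fall was RPL26L1, a paralog of RPL26 (121, 135 and 117 CPM with DMSO and 80.7, 82.7 and 97.4 CPM with MYCi975, log2 fold change −0.51, SE 0.0617, adjusted p = 1.33e-07). Ribosomal protein genes have many processed pseudogenes, and reads that match both may have been split or dropped in counting, so single members are uncertain.

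The elongation factors EEF2 and EEF1A1 rose. EEF2, which moves the ribosome along the message, was at 5263, 5403 and 5490.02 CPM with DMSO and 7506, 7440.01 and 7270.5 CPM with MYCi975 (log2 fold change 0.46, SE 0.0322, adjusted p = 2.31e-15). EEF1A1, which brings aminoacyl-tRNA to the ribosome and also has many pseudogenes, was at 7263, 7465 and 7586 CPM with DMSO and 9824, 9831 and 8719 CPM with MYCi975 (log2 fold change 0.34, SE 0.0364, adjusted p = 1.34e-09). Initiation factors divided. Of 41 measured, 10 rose and 15 fell, and their sum differed by 0.6%, with overlapping groups. EIF4B, a helper of the EIF4A helicase, rose (1074, 1051 and 1097 CPM with DMSO and 1401, 1403 and 1343 CPM with MYCi975, log2 fold change 0.36, SE 0.0362, adjusted p = 7.12e-11). The EIF3 scaffold subunits EIF3L (0.35), EIF3H (0.29), EIF3F (0.25) and EIF3E (0.25) rose, as did EIF4EBP1 (0.31), which holds back the cap-binding protein EIF4E. EIF5B, which joins the ribosomal subunits, fell (375, 329 and 323 CPM with DMSO and 223, 242 and 254 CPM with MYCi975, log2 fold change −0.51, SE 0.0502, adjusted p = 2.35e-09). EIF1AX (−0.35), EIF4G2 (−0.30), EIF4E2 (−0.32) and EIF4A3 (−0.30), an exon junction protein, fell too.

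Messages of the translation machinery are known for a 5′ terminal oligopyrimidine (TOP) start, a C followed by pyrimidines, through which their translation is controlled. The search for it was chosen after the values had been seen, and asked for a C at the RefSeq start (GRCh38.p14) followed by at least 4 more of C or T on the gene's strand. The 30 bases around the start are shown for 6 genes that rose and for EIF5B, which fell, since these 6 starts have the feature and that of EIF5B lacks it. Capitals mark the pyrimidine run from the first transcribed base.
EEF2, chr19:3985449-3985478, minus strand: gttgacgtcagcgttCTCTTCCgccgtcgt
EEF1A1, chr6:73521018-73521047, minus strand: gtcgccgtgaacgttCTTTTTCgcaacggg
EIF4B, chr12:53006441-53006470, plus strand: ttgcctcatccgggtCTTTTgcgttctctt
RPL12, chr9:127451392-127451421, minus strand: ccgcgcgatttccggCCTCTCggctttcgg
RPL13A, chr19:49487593-49487622, plus strand: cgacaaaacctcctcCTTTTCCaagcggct
RPS6, chr9:19380222-19380251, minus strand: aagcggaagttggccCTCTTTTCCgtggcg
EIF5B, chr2:99337374-99337403, plus strand: gcgcactgagaactcacaccatatgtgtcc

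The run ranged from 5 pyrimidines in EIF4B to 9 in RPS6. RPL3, which rose, has a run of 4 and was not counted. Such a start was present in 29 of 40 large subunit ribosomal protein genes with a RefSeq promoter. It was present in 7.82% of the 8921 protein-coding genes tested that had one (82.1% of all tested) and in 4.07% of all 35116 RefSeq promoters. The count over the small subunit, 19 of 26, is void as a check because only 78.8% of its measured genes were matched. Among 34 matched initiation factors 7 had a TOP-like start. These were 5 of the 5 matched factors that rose, none of the 15 that fell, and 2 that were not called. In all 10 factors rose, and those without a matched promoter could not be searched. The split therefore covers only part of the rises. Outside the ribosomal proteins, 650 genes with such a start included 129 that rose (19.8%) and 94 that fell (14.5%). Of 8205 genes without it, 9.92% rose and 21.3% fell. These shares describe the genes and were not tested.

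Most genes of ribosome assembly fell. Of 75 nucleolar assembly genes, 0 rose and 55 fell (40 with TMM factors), with a median of −0.17 and a sum lower by 13.2%. TCOF1, the treacle protein of ribosomal RNA transcription, was at 297, 297 and 271 CPM with DMSO and 209, 211 and 225 CPM with MYCi975 (log2 fold change −0.42, SE 0.0443, adjusted p = 2.94e-10). NOP56, a core protein of box C/D particles that modify ribosomal RNA, was at 467, 433 and 417 against 346, 337 and 325 CPM (−0.38), and UTP20, of the small subunit processome, at 361, 364 and 347 against 265, 262 and 288 CPM (−0.40). None of these groups overlapped. RNA polymerase I, which transcribes the ribosomal RNA genes, moved little: of 14 subunits and initiation factors 0 (1 with TMM factors, 1 without DMSO replicate 1) rose and 3 fell, among them POLR1A (−0.19), its largest subunit, and CD3EAP (−0.27). For RNA polymerase III, which makes transfer RNA and 5S RNA, 1 (2 with TMM factors) of 22 rose and 10 (6 without MYCi975 replicate 2) fell. POLR3D rose (0.34), and POLR3F (−0.48), POLR3G (−0.30) and POLR3K (−0.27) fell. Host genes of small nucleolar RNAs divided, with 7 of 24 that rose and 4 that fell, beside 10.6% and 18.0% of all genes. SNHG7 (0.40), ZFAS1 (0.33) and SNHG3 (0.20) rose, and SNHG1 (−0.30) and DANCR (−0.23) fell.

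On CPM most genes that process and export RNA fell. Of 56 genes of the spliceosome and of RNA-binding proteins 0 (1 with TMM factors, 1 without DMSO replicate 1) rose and 44 fell, with a median of −0.25. SNRPG, a core protein of the small nuclear particles, was at 103, 92.5 and 96.5 CPM with DMSO and 68.3, 66.5 and 60.7 CPM with MYCi975 (log2 fold change −0.57, SE 0.0568, adjusted p = 7.12e-11). HNRNPA2B1, an abundant RNA-binding protein, was at 1747, 1507 and 1525 against 1181, 1184 and 1193 CPM (−0.42), and the splicing factor SRSF6 at 319, 297 and 295 against 231, 221 and 220.1 CPM (−0.44). In each case all MYCi975 libraries were lower. SNRNP70 (−0.45) and HNRNPDL (−0.46) fell as well. Of 45 DEAD and DEAH box helicases 2 (1 without MYCi975 replicate 1) rose and 31 (22 with TMM factors) fell. DHX9 (−0.37), DDX5 (−0.38) and DHX29 (−0.44) were among the falls, and DDX17, a close relative of DDX5, rose (468, 442 and 432 CPM with DMSO and 518, 512 and 508 CPM with MYCi975, log2 fold change 0.20, SE 0.0396, adjusted p = 0.000125). Of 53 nuclear transport genes 2 (1 without DMSO replicate 3 or MYCi975 replicate 3) rose and 31 (21 with TMM factors) fell. NUP62 (205, 192 and 196 against 138, 142 and 129 CPM), of the central pore channel, the importin KPNA2 (359, 350.2 and 369.96 against 271, 272 and 262 CPM) and the Ran-binding RANBP1 (681, 698 and 656 against 530.5, 499 and 539 CPM) fell, while the pore protein NUP210 rose (460.1, 459.6 and 454 CPM with DMSO and 589, 576 and 626 CPM with MYCi975, log2 fold change 0.38, SE 0.0393, adjusted p = 1.84e-10).

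**Figure D2:**
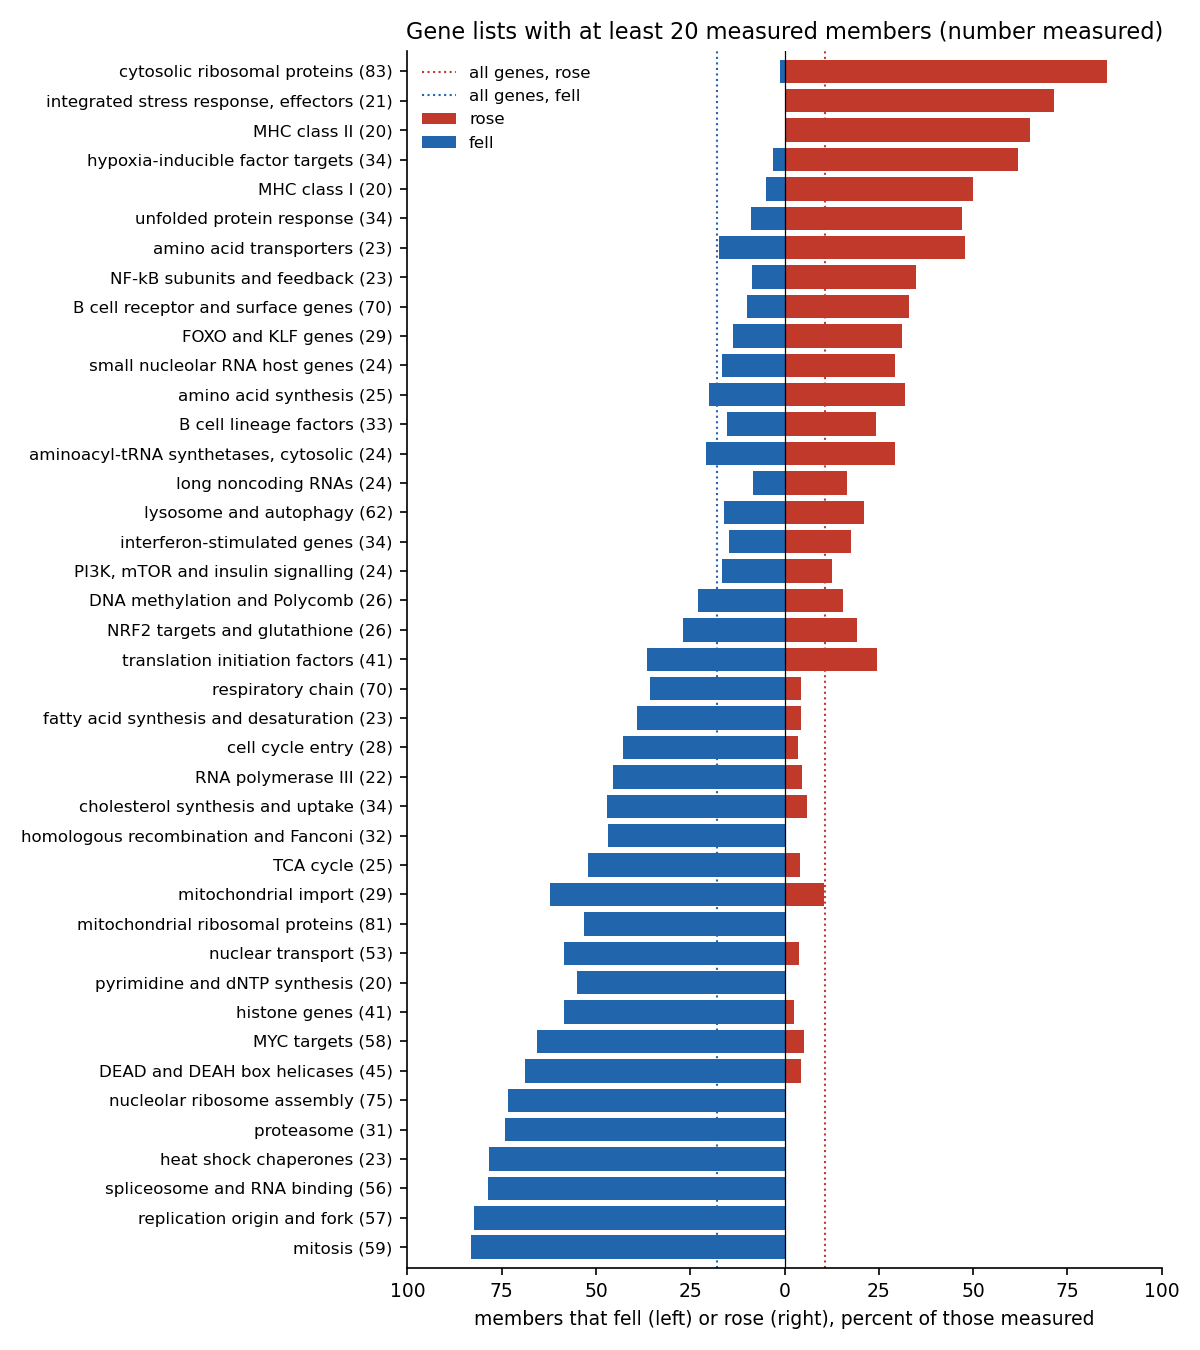
For gene lists with at least 20 measured members, the red bar to the right gives the percent of members that rose and the blue bar to the left the percent that fell, at an adjusted p below 0.05. Dotted lines mark the shares over all genes, 10.6% that rose and 18.0% that fell. Cytosolic ribosomal proteins lead the rises (71 of 83), and mitosis, replication and the spliceosome lead the falls (49 of 59, 47 of 57 and 44 of 56).

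Most cytosolic chaperones fell. Of 23 heat shock genes 0 rose and 18 fell, with a median of −0.30, and their summed level was 17853, 17762 and 17530.4 CPM with DMSO and 13768, 13976 and 13876 CPM with MYCi975, lower by 21.7% without overlap. HSP90AA1, the inducible HSP90, was at 3533, 3363 and 3263 CPM with DMSO and 2311, 2386 and 2462 CPM with MYCi975 (log2 fold change −0.50, SE 0.0354, adjusted p = 2.32e-15). HSPA8, the constitutive HSP70, was at 3366, 3477 and 3482 CPM with DMSO and 2569.6, 2611 and 2446 CPM with MYCi975 (log2 fold change −0.44, SE 0.0344, adjusted p = 8.82e-14), and HSP90AB1 at 4638, 4719 and 4575 against 3713, 3765 and 3831 CPM (−0.30). The DMSO and MYCi975 libraries were apart in all of these. The co-chaperones CHORDC1 (−0.51), HSPH1 (−0.45) and STIP1 (−0.43) and the mitochondrial chaperonin partner HSPE1 (−0.49) fell. All 8 subunits of the CCT chaperonin, which folds actin and tubulin, fell (6 with TMM factors), from CCT4 (−0.10), lost with TMM factors, to CCT6A (−0.35).

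Heat shock element letters stand in some of these promoters. The windows below hold a heat shock element, 3 units of the sequence that heat shock factors bind, searched as GAA, then TTC, then GAA with any 2 bases between units, on either strand within 250 bases before to 50 bases after the RefSeq start (GRCh38.p14), and are shown because their genes fell. Capitals mark the match.
HSP90AA1, chr14:102087100-102087152, minus strand: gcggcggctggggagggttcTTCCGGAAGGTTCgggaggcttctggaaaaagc
HSPA8, chr11:123062159-123062211, minus strand: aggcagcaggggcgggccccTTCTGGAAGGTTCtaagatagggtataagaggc
CHORDC1, chr11:90223067-90223119, minus strand: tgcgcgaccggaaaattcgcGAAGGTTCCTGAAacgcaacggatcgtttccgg
HSP90AB1, chr6:44247811-44247863, plus strand: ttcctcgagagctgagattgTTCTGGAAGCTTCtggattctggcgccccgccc

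Such a match was present in 3 of 8 HSP90 and HSP70 genes and in 3 of 13 matched small heat shock, HSP40 and co-chaperone genes, and these 6 genes fell. Among matched protein-coding genes the share was 0.426%, and among all RefSeq promoters 0.441%. Of the 38 matched genes with these letters 3 rose and 10 fell (26.3%), against 20.6% that fell among genes without them. The 10 falls include the 6 genes above, from a list chosen with earlier results known. This share is therefore not independent of that list and was not tested. A match is a description of the letters and not evidence that a factor bound there.

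Most proteasome genes fell. Of 31 core and lid genes 0 rose and 23 fell, with a median of −0.22. PSMD1, the large scaffold of the regulatory particle, was at 218, 216 and 213 CPM with DMSO and 144, 146 and 159.8 CPM with MYCi975 (log2 fold change −0.52, SE 0.0458, adjusted p = 2.58e-12), and PSMD12 at 118, 108 and 105 against 78.6, 81.6 and 81.5 CPM (−0.45). Neither gene's groups overlapped. Of 5 genes of the immunoproteasome, the form used for antigen processing, 1 (0 without DMSO replicate 3) rose, which was PSME1 (0.18). PSMB8 (0.03), PSMB9 (0.16) and PSMB10 (0.13) passed no test.

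Part of the genes of the endoplasmic reticulum stress response rose, while its chaperone HSPA5 was not called. Of 34 genes of the unfolded protein response 16 rose and 3 (1 with TMM factors, 1 without MYCi975 replicate 2) fell. ERN1, which codes for the sensor IRE1, was at 16.7, 14.9 and 14.7 CPM with DMSO and 30.96, 31.6 and 38.7 CPM with MYCi975 (log2 fold change 1.08, SE 0.092, adjusted p = 1.21e-12). XBP1, whose message IRE1 splices, was at 179, 186 and 180.2 against 248, 243 and 233 CPM (0.41), HERPUD1, a degradation adaptor, at 35.6, 35.8 and 39.2 against 63.8, 64.7 and 57.01 CPM (0.73) and EDEM1, which sends misfolded glycoproteins to degradation, at 181, 177 and 164 against 261, 257 and 259 CPM (0.57). The MYCi975 libraries were all higher in these 4 genes. By role, 4 of 7 sensors and transcription factors and 6 of 10 degradation genes rose, and none of either fell. Among 17 chaperones and folding enzymes 6 rose and 3 fell (1 with TMM factors), with DNAJB9 (0.49) among the rises and CRELD2 (−0.37) among the falls. The chaperone HSPA5, the BiP protein, was at 659.7, 669 and 692 against 684, 666 and 644 CPM, with overlapping groups (adjusted p = 0.758). It is named outside the rule because it defines the response.

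Most measured genes of the integrated stress response rose. In this response kinases that sense missing amino acids, unfolded protein or other stress phosphorylate eIF2, and the factor ATF4 then raises genes for amino acid synthesis, transport and tRNA charging. Among its transcription factors and their brakes 7 of 9 rose and none fell. ATF5 was at 216, 223 and 210.04 CPM with DMSO and 373, 341 and 403 CPM with MYCi975 (log2 fold change 0.78, SE 0.0464, adjusted p = 2.25e-16). DDIT3, the CHOP protein, was at 1.74, 2.05 and 2.56 CPM with DMSO and 4.36, 6.51 and 6.99 CPM with MYCi975 (log2 fold change 1.15, SE 0.174, adjusted p = 1.18e-06), and TRIB3, a pseudokinase that restrains ATF4, at 40.8, 41.1 and 36.9 against 56.2, 64.5 and 58.01 CPM (0.58). None of the 3 overlapped between groups. CEBPB (0.46) and ATF3 (1.29) rose as well. Over all 17 regulators 9 rose and 2 (1 without DMSO replicate 3 or MYCi975 replicate 1 or 2) fell. The falls were EIF2S1 (174, 172 and 169.5 CPM with DMSO and 152, 142 and 139 CPM with MYCi975, −0.25), which codes for the eIF2 subunit that is phosphorylated, and EIF2AK2 (−0.21), the kinase PKR, which lost its call without DMSO replicate 3, MYCi975 replicate 1 or MYCi975 replicate 2.

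Of 21 effectors 15 rose and 0 fell. The secreted factors and receptors held the largest change of the list, that of INHBE (2.27). VLDLR, a lipoprotein receptor, was at 0.775, 0.246 and 0.205 CPM with DMSO and 4.28, 5.13 and 4.89 CPM with MYCi975, INHBE, an activin subunit, at 1.74, 1.64 and 2.15 against 13.4, 10.8 and 14.2 CPM, and ADM2 at 0.872, 0.491 and 0.614 against 2.14, 3.45 and 3.29 CPM. DMSO levels of VLDLR and ADM2 stood for only a few reads per library, so their fold changes (2.05 and 1.25) are imprecise, although no MYCi975 library was as low as a DMSO library. CHAC1, which breaks down glutathione, was at 0.194, 0.491 and 0.818 against 3.51, 3.65 and 5.09 CPM (1.77). DDIT4, a brake on mTOR, was at 25.7, 29.7 and 20.6 CPM with DMSO and 61.9, 57.6 and 63.7 CPM with MYCi975 (log2 fold change 1.25, SE 0.09, adjusted p = 4e-11).

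C/EBP-ATF response element letters, TGATGNAA on either strand, were searched in the same promoter windows. Windows of 5 genes that rose are shown because they belong to 4 steps of the response: its factors, glutathione breakdown, amino acid supply and protein degradation. Capitals mark the match.
ATF3, chr1:212565196-212565243, plus strand: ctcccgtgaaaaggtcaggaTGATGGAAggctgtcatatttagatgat
CHAC1, chr15:40953242-40953289, plus strand: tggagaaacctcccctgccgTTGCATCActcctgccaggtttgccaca
ASNS, chr7:97872449-97872496, minus strand: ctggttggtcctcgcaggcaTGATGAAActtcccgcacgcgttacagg
SLC1A5, chr19:46784884-46784931, minus strand: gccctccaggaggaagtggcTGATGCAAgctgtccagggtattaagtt
HERPUD1, chr16:56931946-56931993, plus strand: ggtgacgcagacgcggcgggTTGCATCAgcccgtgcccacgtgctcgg

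The letters were present in 3 of 8 matched transcription factors and brakes of the response, of which 2 rose, and in 1 of 7 matched eIF2 kinases and phosphatase genes. They were present in 2.25% of matched protein-coding genes and 3.14% of all RefSeq promoters. Of the 201 matched genes with them 34 rose (16.9%) and 28 fell (13.9%), and of genes without them 11.1% rose and 20.8% fell.

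Amino acid synthesis changed gene by gene. Of 25 genes 8 rose and 5 (3 with TMM factors) fell, beside 10.6% and 18.0% of all genes. ASS1, which makes argininosuccinate for arginine, was at 48.4, 56.4 and 50.5 CPM with DMSO and 174, 181 and 172 CPM with MYCi975 (log2 fold change 1.75, SE 0.0544, adjusted p = 4.42e-29). ASNS, asparagine synthetase, was at 39.5, 36.5 and 43.5 CPM with DMSO and 66.97, 69.6 and 62.9 CPM with MYCi975 (log2 fold change 0.73, SE 0.0666, adjusted p = 7.52e-12). PSAT1 (73.6, 76.7 and 83.3 against 107, 118 and 98.3 CPM) and PHGDH (181, 178 and 169 against 213, 223 and 226 CPM), of serine synthesis, rose by 0.46 and 0.33. None of these groups overlapped. BCAT1, which transaminates branched-chain amino acids, rose by 0.29. PYCRL, of proline synthesis, fell (15.8, 15.97 and 16.2 against 10.3, 10.4 and 11.1 CPM, −0.55), and GLDC, which breaks down glycine, fell by 0.24 on the log2 scale.

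Of 23 amino acid carriers 11 rose and 4 fell, beside 10.6% and 18.0% of all genes. The falls do not exceed that share. Among the rises were 6 of 7 exchangers of the SLC7 and SLC3 families. SLC6A9, a glycine carrier, was at 2.23, 1.88 and 2.66 CPM with DMSO and 8.04, 9.77 and 9.09 CPM with MYCi975 (log2 fold change 1.62, SE 0.156, adjusted p = 3.58e-11). SLC7A11, the cystine-glutamate exchanger, was at 18.8, 17.9 and 18.01 CPM with DMSO and 26.8, 30.6 and 33.5 CPM with MYCi975 (log2 fold change 0.70, SE 0.0891, adjusted p = 3.43e-08). SLC43A1 (0.49), a carrier of large neutral amino acids, SLC1A5 (0.33), a glutamine carrier, and SLC1A4 (0.31) rose. SLC43A2 (−0.28), SLC38A5 (−0.25) and SLC6A6 (−0.24), a taurine carrier, fell. Cytosolic tRNA synthetases, which charge tRNA with amino acids, were called in both directions on CPM: 7 of 24 rose and 5 (1 with TMM factors, 2 without MYCi975 replicate 1, 3 without DMSO replicate 1 or 2 or MYCi975 replicate 2) fell. WARS, for tryptophan, was at 144, 149.5 and 138 CPM with DMSO and 219.7, 235 and 232 CPM with MYCi975 (log2 fold change 0.67, SE 0.0454, adjusted p = 9.41e-16), and SARS (0.34) and CARS (0.31) rose. AIMP2, a scaffold of the synthetase complex, fell (−0.26). Of 17 mitochondrial synthetases 0 (1 with TMM factors, 1 without MYCi975 replicate 1) rose and 6 fell, among them VARS2 (−0.33) and YARS2 (−0.30).

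**Figure D3:**
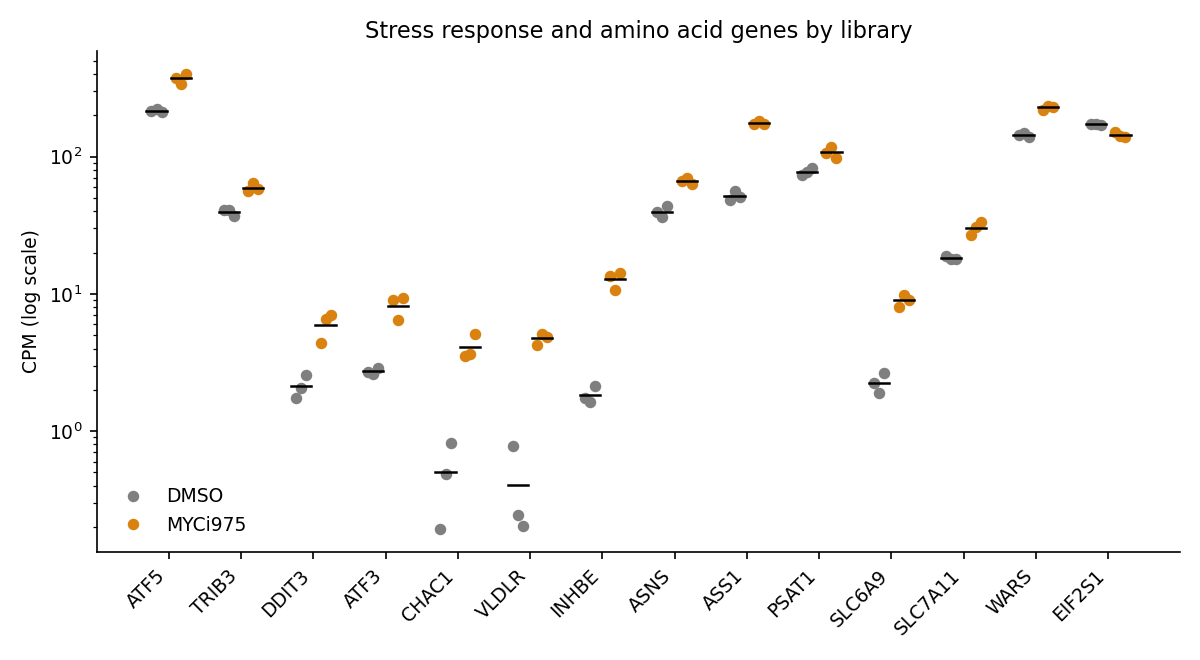
CPM of 14 genes in each library on a log axis, grey for the 3 DMSO libraries and orange for the 3 MYCi975 libraries, with a black bar at each group mean. The first 13 genes, from ATF5 to WARS, rose without overlap of the groups, and EIF2S1 on the right fell.

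Nucleotide genes mostly fell where they changed, and folate enzymes were called in both directions. Of 13 folate enzymes 1 (2 with TMM factors, 2 without MYCi975 replicate 3) rose and 3 fell. These folate counts lie near the shares over all genes, 10.6% that rose and 18.0% that fell. ALDH1L2, a mitochondrial folate dehydrogenase, rose (12.1, 10.97 and 8.39 against 20.2, 19.2 and 23.5 CPM, log2 fold change 0.94, SE 0.112, adjusted p = 5.98e-09). MTHFD2, a mitochondrial folate enzyme, had group means from 310.3 to 321 CPM (DMSO to MYCi975, adjusted p = 0.426). Of 20 pyrimidine and dNTP genes 0 (1 with TMM factors, 1 without DMSO replicate 1) rose and 11 fell, led by RRM2, the regulated subunit of ribonucleotide reductase (232, 235 and 236 CPM with DMSO and 144, 137 and 139 CPM with MYCi975, log2 fold change −0.74, SE 0.0441, adjusted p = 2.21e-17). RRM1 (−0.32), TYMS (−0.30) and DTYMK (−0.30) fell. Of 18 purine genes 1 (2 with TMM factors) rose and 10 fell. IMPDH2, which makes guanine nucleotides, rose (370.00, 367 and 367 against 457, 452 and 431 CPM, 0.28) while its paralog IMPDH1 fell (173, 171 and 176 against 159, 159 and 139 CPM, −0.19). Of 14 polyamine genes 0 rose and 5 fell, with ODC1, the first enzyme of polyamine synthesis and a textbook MYC target, at 713, 718 and 722 against 598, 589 and 561 CPM (−0.30) and MAT2A (−0.33).

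A list of 58 textbook MYC targets, which shares members with the lists here, had 3 (5 with TMM factors) that rose and 38 that fell, with a median of −0.19. By role, 15 of 20 ribosome assembly genes, 7 of 10 cell cycle and replication genes and 11 of 15 genes of chaperones, translation and mitochondria fell, and none of these 3 groups held a rise on CPM (1 of the last 15 with TMM factors). Of 13 metabolic and nucleotide genes 3 rose, IMPDH2, HK2 (0.19) and SHMT2 (0.15, not called without MYCi975 replicate 1), and 5 fell. PCNA, the replication clamp, was at 264, 276 and 259 against 188, 186 and 188 CPM (−0.50), CDC25A at 92.7, 95.3 and 97.6 against 76.98, 67.8 and 71.2 CPM (−0.40) and TFRC, the transferrin receptor, at 443, 441 and 452 against 346, 338 and 329 CPM (−0.40).

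Genes of DNA replication and mitosis mostly fell. Of 57 replication genes 0 rose and 47 fell, with a median of −0.30. CLSPN, the checkpoint adaptor claspin, was at 139, 135 and 119 CPM with DMSO and 82.6, 82.02 and 87.1 CPM with MYCi975 (log2 fold change −0.63, SE 0.054, adjusted p = 1.01e-12). GMNN, geminin, which stops origins from being licensed again, was at 33.6, 35.5 and 32.9 against 22.9, 23.3 and 20.6 CPM (−0.59). POLE2 (−0.57), ORC6 (−0.53), MCM10 (−0.52) and GINS4 (−0.52) fell too, and none of these groups overlapped. Of 59 mitotic genes 0 rose and 49 fell, with 31 of 34 kinesins, kinetochore and chromosome structure genes among the falls and a median of −0.28. CENPE, a kinetochore motor, was at 91.1, 70.1 and 59.4 CPM with DMSO and 37.7, 40.2 and 43.03 CPM with MYCi975 (log2 fold change −0.83, SE 0.162, adjusted p = 0.0137). MKI67, the proliferation marker Ki-67, was at 639, 585 and 543 CPM with DMSO and 339, 378 and 438 CPM with MYCi975 (log2 fold change −0.62, SE 0.118, adjusted p = 0.0197). CENPE was not called without MYCi975 replicate 1 (adjusted p = 0.0563) or 2 (0.0677), and MKI67 not without DMSO replicate 1 (0.0505) or 2 (0.0587) or MYCi975 replicate 2 (0.0559). KIF11, the spindle motor, fell (173, 166 and 173 against 129, 123 and 127 CPM, −0.43), as did HMMR (−0.47).

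Cell cycle entry and repair genes fell in part. Of 28 cyclins, kinases, inhibitors and E2F factors 1 (3 with TMM factors, 2 without MYCi975 replicate 1) rose and 12 fell. CCNE2, a cyclin of S phase entry, was at 14.7, 17.4 and 17.8 CPM with DMSO and 9.67, 10.4 and 10.1 CPM with MYCi975 (log2 fold change −0.67, SE 0.109, adjusted p = 3.93e-06), and E2F8 (−0.54), E2F7 (−0.41) and CCND3 (−0.41) fell. CDK6 rose (77.5, 74.8 and 79.6 against 88.7, 89.03 and 92.4 CPM, 0.22). Of 32 genes of homologous recombination and the Fanconi pathway 0 rose and 15 fell, among them EXO1 (−0.55), XRCC2 (−0.53), BLM (−0.47) and BRCA2 (−0.40). Of 41 histone genes 1 (0 without DMSO replicate 2 or 3 or MYCi975 replicate 1, 2 or 3) rose and 24 fell. H2AFZ, the variant H2A.Z, was at 252, 258 and 264 against 204, 209 and 169.9 CPM (−0.41), and HIST1H3J (−0.42), H2BC14 (−0.39) and H2AC12 (−0.33) fell. Histone genes have near-identical copies, so single members are uncertain. Of 26 genes of DNA methylation and Polycomb 4 (2 without DMSO replicate 2 or MYCi975 replicate 3) rose and 6 fell. Over all genes 10.6% rose and 18.0% fell. DNMT1, the maintenance methyltransferase (369.5, 335 and 337 against 268, 278 and 269.6 CPM, −0.35), its partner UHRF1 (−0.31) and the Polycomb subunits EED (−0.33) and EZH2 (−0.32) fell, and PHC1 (0.45) and DNMT3A (0.22) rose.

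Most measured targets of the hypoxia-inducible factor (HIF) rose. HIF is degraded when oxygen is present and raises genes of glycolysis, iron supply and mitophagy when it is not. Of 34 genes on the list 21 rose and 1 (2 without DMSO replicate 3) fell, and 20 of the 27 targets proper were among the rises, with a median of 0.54 for those 27. PDK1, a pyruvate dehydrogenase kinase, was at 38.6, 36.6 and 34.6 CPM with DMSO and 64.2, 65.8 and 73.6 CPM with MYCi975 (log2 fold change 0.87, SE 0.0664, adjusted p = 3.31e-14). PFKFB4, which tunes glycolytic flux, was at 17.9, 20.4 and 14.6 CPM with DMSO and 36.6, 34.5 and 38.7 CPM with MYCi975 (log2 fold change 1.02, SE 0.0922, adjusted p = 7.52e-12), and the glucose carrier SLC2A3 at 6.49, 5.57 and 3.58 against 9.92, 10.2 and 12.3 CPM (0.95). None overlapped between groups. ADM (0.485, 1.31 and 0.409 against 2.14, 2.47 and 2.20 CPM) and PPFIA4 (2.62, 4.01 and 1.64 against 5.99, 4.64 and 6.99 CPM) rose from low levels. Of the factors and oxygen sensors, VHL, which marks HIF for degradation, fell (59.3, 51.1 and 51.3 CPM with DMSO and 38.1, 42.7 and 43.3 CPM with MYCi975, log2 fold change −0.37, SE 0.0693, adjusted p = 4.21e-05), and EGLN1, a prolyl hydroxylase, rose (4.65, 4.42 and 4.19 against 7.61, 6.51 and 9.19 CPM, 0.68, named outside the rule as the other call among 7 sensors). Of 15 genes for glucose uptake and its regulators 7 rose and 2 fell, among them the lactate exporter SLC16A3 (0.30) up and SLC2A6 (−0.29) down. Of 16 glycolytic enzymes 8 (4 without MYCi975 replicate 1, 5 without DMSO replicate 1) rose and 0 fell, mostly by small amounts. ALDOC, an aldolase, was at 18.6, 20.4 and 19.03 CPM with DMSO and 31.8, 33.8 and 39.5 CPM with MYCi975 (log2 fold change 0.82, SE 0.0864, adjusted p = 2.94e-10), while HK2 (0.19) and GPI (0.18) rose by less. TXNIP, an arrestin that limits glucose uptake, fell (38.2, 33.5 and 38.4 against 29.1, 26.4 and 32.3 CPM, −0.32), and the other 4 arrestins were not called.

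Most genes encoded by mitochondrial DNA rose. Of 13 measured 9 rose and 0 fell, and 12 did not overlap between groups. Their summed level was 15563, 14397 and 14536 CPM with DMSO and 18634, 18491 and 22605 CPM with MYCi975, higher by 34.2%. MYCi975 replicate 3 stood highest, at 152.4% of the DMSO mean against 124.7% and 125.6% for the other two. MT-CO1, of complex IV, was at 4294, 4051 and 4067 CPM with DMSO and 5429, 5376 and 6471 CPM with MYCi975 (log2 fold change 0.47, SE 0.0716, adjusted p = 0.00209). MT-ND4L (0.50), MT-CO2 (0.44) and MT-ND3 (0.41) rose, and MT-ND6, the gene on the other strand, was at 81.8, 49.6 and 47.2 against 59.2, 45.2 and 66.5 CPM, with overlapping groups. The share of reads on all 26 mitochondrial entries, a common sign of RNA and cell quality, was 1.82% to 1.96% with DMSO and 2.41% to 2.77% with MYCi975, and its part in these rises was not tested. Mitochondrial genes have nuclear copies, which makes single values uncertain.

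Nuclear genes for the same organelle were called mostly as falls, and many were not called. Of 70 respiratory chain genes 3 (1 without DMSO replicate 1 or 2 or MYCi975 replicate 1) rose and 25 fell, with a median of −0.12. CYCS, cytochrome c, was at 348, 336 and 345 CPM with DMSO and 259.9, 267 and 252 CPM with MYCi975 (log2 fold change −0.40, SE 0.0411, adjusted p = 1.46e-10), NDUFA6, of complex I, at 170.2, 171 and 165 against 136, 127 and 135 CPM (−0.35) and UQCR10, of complex III, at 119, 115 and 129 against 97.8, 97.6 and 92.2 CPM (−0.33). All 3 were lower in every MYCi975 library. Of 81 mitochondrial ribosomal proteins 0 rose and 43 fell, with a median of −0.18 against 0.22 for the cytosolic ones. MRPL18 (−0.38), MRPL49 (−0.36) and MRPL32 (−0.36) were among them. Of 29 import genes 3 rose and 18 fell, with TIMM17A (−0.36) and TOMM40 (−0.29) down and TIMM9 (0.31) up. Of 25 TCA cycle genes 1 (2 with TMM factors) rose and 13 fell. IDH1, the cytosolic isocitrate dehydrogenase (33.7, 32.8 and 33.3 against 23.1, 23.4 and 24.3 CPM, −0.48), and IDH3A (−0.35) fell, and the mitochondrial IDH2 rose (135, 140.3 and 137 against 169.6, 166 and 160.4 CPM, 0.26).

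**Figure D4:**
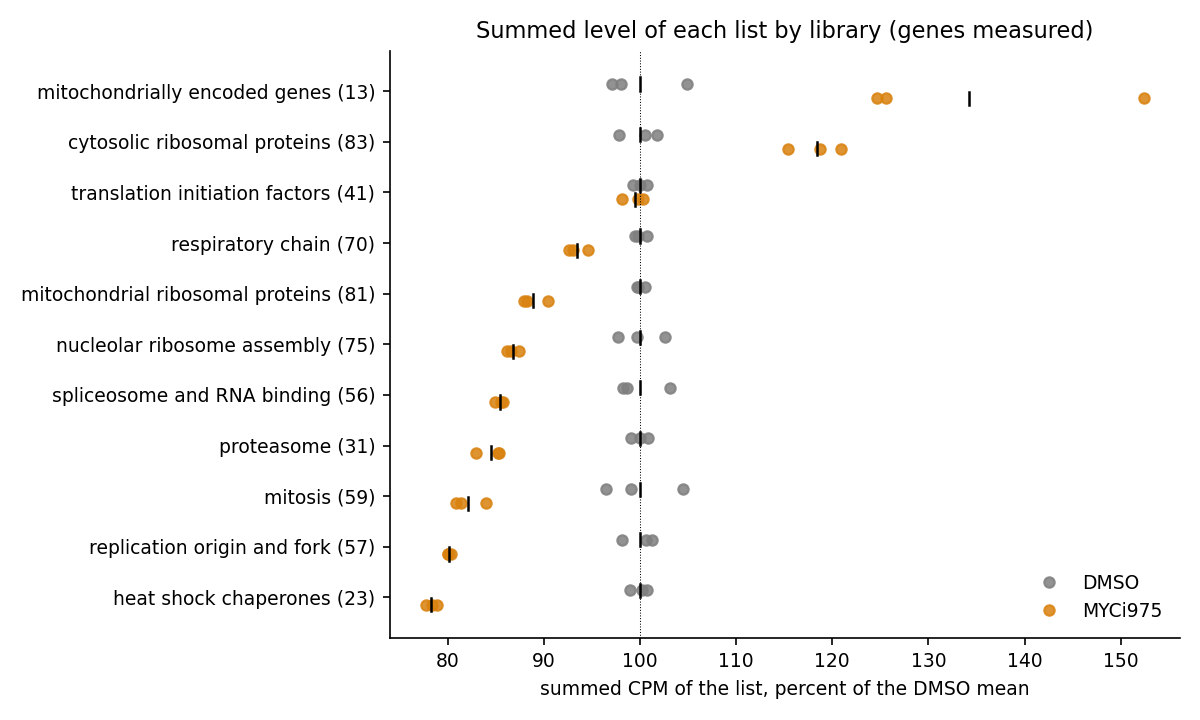
Summed CPM of 11 gene lists in each library, as percent of the list's DMSO mean on the horizontal axis, grey for DMSO and orange for MYCi975, with a bar at each group mean and the number of genes in parentheses. Mitochondrially encoded genes and cytosolic ribosomal proteins lie to the right of 100, translation initiation factors overlap, and the other 8 lists lie to the left without overlap.

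Lipid synthesis genes mostly fell where they changed. Of 34 cholesterol genes 2 (4 with TMM factors, 1 without DMSO replicate 1 or 2 or MYCi975 replicate 3) rose and 16 fell, with 12 of 20 synthesis enzymes among the falls. HMGCS1, which makes HMG-CoA, was at 139, 137 and 124 CPM with DMSO and 81.3, 92.7 and 100.94 CPM with MYCi975 (log2 fold change −0.54, SE 0.0608, adjusted p = 4.12e-08). MVK (−0.49), ACAT2 (−0.44) and LSS (−0.42) fell, and so did ABCA1, the cholesterol exporter (52.2, 53.6 and 53.6 against 34.2, 32.9 and 33.8 CPM, −0.64). SREBF2, the factor that drives this pathway, rose (206, 216 and 200.2 against 234, 242 and 253 CPM, 0.23), while SREBF1, its relative in fatty acid synthesis, fell (128, 128 and 117 CPM with DMSO and 90.8, 83.01 and 87.4 CPM with MYCi975, log2 fold change −0.51, SE 0.0521, adjusted p = 1.27e-10). Both genes were without overlap. Of 23 fatty acid genes 1 (2 with TMM factors) rose and 9 fell, with ACLY (−0.35), SCD (−0.31) and FADS2 (−0.25) down and FADS3 (0.52) up.

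Lysosomal, iron and redox lists held calls in both directions, where 10.6% of all genes rose and 18.0% fell. Of 62 lysosome and autophagy genes 13 rose and 10 (6 without DMSO replicate 3) fell. GRN, progranulin (175, 169.6 and 170.3 against 229, 229.6 and 233 CPM, 0.42), TPP1 (0.43), PSAP (0.24) and the antigen-processing protease CTSS (0.23) rose, and GLA (−0.43) and the autophagy gene BECN1 (−0.37) fell. For iron handling 1 (2 with TMM factors, 2 without MYCi975 replicate 3) of 17 rose and 6 fell: FTH1, which stores iron, was at 958, 927 and 975.33 CPM with DMSO and 1202, 1195 and 1223 CPM with MYCi975 (log2 fold change 0.34, SE 0.0363, adjusted p = 4.17e-10), and TFRC, which takes it up, fell. Of 26 NRF2 targets and glutathione genes 5 rose and 7 (4 with TMM factors, 4 without DMSO replicate 3 or MYCi975 replicate 1) fell, with PRDX1 (−0.30) and CHAC2 (−0.44) down and NFE2L1 (0.36) up.

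Many antigen presentation genes rose. Of 20 genes of MHC class II 13 rose and 0 fell, with a median of 0.37. HLA-DPB1 was at 142, 144 and 148 CPM with DMSO and 229.8, 225 and 228 CPM with MYCi975 (log2 fold change 0.65, SE 0.0439, adjusted p = 6.45e-16), and HLA-DQA1 (0.60), HLA-DRB1 (0.48) and HLA-DPA1 (0.45) rose. Of 20 class I genes 10 rose and 1 (0 with TMM factors, 0 without DMSO replicate 2 or MYCi975 replicate 2) fell. HLA-B was at 377, 384 and 382 CPM with DMSO and 559, 547 and 536 CPM with MYCi975 (log2 fold change 0.52, SE 0.0387, adjusted p = 1.6e-14), and HLA-E (0.55) and the peptide transporter TAP1 (0.39) rose. In every gene named here the MYCi975 libraries were all higher. HLA genes vary between people and resemble each other, so reads may be lost or shared between them.

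Single genes of B cell identity rose or fell. Of 33 lineage factors 8 rose and 5 fell, beside 10.6% and 18.0% of all genes. The falls do not exceed that share. The summed level of the factors differed by 1.5%, with overlapping groups. IRF8, a germinal centre factor, was at 158, 157 and 151 CPM with DMSO and 215, 204 and 226 CPM with MYCi975 (log2 fold change 0.46, SE 0.0457, adjusted p = 5.99e-11), and POU2AF1, the OCT coactivator of B cells, at 67.9, 66.98 and 68.3 against 84.7, 84.3 and 96.7 CPM (0.38). MEF2B (0.49) and BCL11A (0.25) rose. ID3, an inhibitor of E proteins, fell (62.9, 62.1 and 61.4 CPM with DMSO and 46.3, 40.3 and 42.2 CPM with MYCi975, log2 fold change −0.53, SE 0.0642, adjusted p = 1.16e-08), and so did IKZF2 (172, 171 and 188 against 127, 129 and 119.5 CPM, −0.50) and MEF2C (−0.24). PAX5, the factor that holds B cell identity, had group means from 298 to 309 CPM (DMSO to MYCi975, adjusted p = 0.363).

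Of 70 genes of the B cell receptor and surface 23 rose and 7 fell, beside 10.6% and 18.0% of all genes. The falls do not exceed that share. CD37, a tetraspanin, was at 93.2, 98.4 and 96.99 CPM with DMSO and 145, 135 and 154 CPM with MYCi975 (log2 fold change 0.58, SE 0.0509, adjusted p = 2.38e-12). LY9, a receptor of the SLAM family, was at 0.582, 1.23 and 0.818 CPM with DMSO and 3.08, 2.96 and 3.59 CPM with MYCi975 (log2 fold change 1.18, SE 0.197, adjusted p = 6.67e-06), from very few reads with DMSO. The adhesion gene ICAM1 was at 21.3, 22.4 and 17.4 against 29.4, 27.04 and 33.05 CPM (0.53), and ITGB2, a subunit of the integrin that binds its protein, at 15.1, 16.3 and 14.3 against 29.9, 30.9 and 28.6 CPM (0.92). All MYCi975 libraries were higher in these genes. S1PR2 (1.07, 1.15 and 2.15 against 2.65, 3.26 and 2.995 CPM) and CD69 (0.969, 1.06 and 1.33 against 2.22, 2.57 and 2.40 CPM), each tied to the position of lymphocytes in tissue, rose from low levels. CD86, a costimulatory ligand (62.9, 66.8 and 63.2 CPM with DMSO and 49.3, 49.5 and 49.2 CPM with MYCi975, log2 fold change −0.38, SE 0.0605, adjusted p = 3.61e-06), FCER2, the IgE receptor CD23 (−0.33), and the phosphatase PTPN6 (−0.30) fell.

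**Figure D5:**
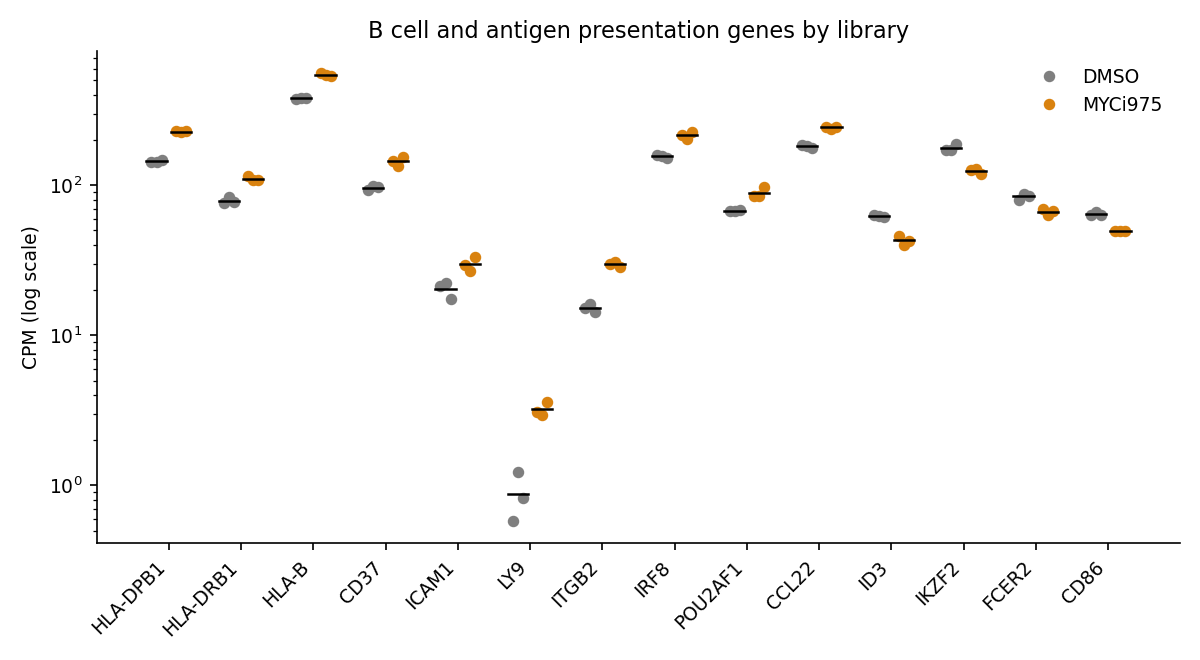
CPM of 14 B cell and antigen presentation genes in each library on a log axis, grey for DMSO and orange for MYCi975, with a black bar at each group mean. The first 10 genes, from HLA-DPB1 to CCL22, were higher in all MYCi975 libraries, and ID3, IKZF2, FCER2 and CD86 were lower in all of them.

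Signalling lists were mostly short, and their counts stand beside 10.6% of all genes that rose and 18.0% that fell. Of 23 genes of NF-kB and its feedback 8 (5 without DMSO replicate 3) rose and 2 (1 with TMM factors, 1 without DMSO replicate 1 or MYCi975 replicate 3) fell, with TNFAIP3, the A20 protein that ends the signal (12.2, 10.4 and 12.6 against 17.7, 17.1 and 20.8 CPM, 0.62), RELB (18.999, 17.5 and 20.4 against 28.3, 25.9 and 28.9 CPM, 0.52) and TRAF1 (0.34) among the rises. Of 17 cytokines and chemokines 7 (4 without DMSO replicate 3) rose and 0 (1 without DMSO replicate 1 or MYCi975 replicate 3) fell. CCL22, a chemokine that draws T cells, was at 187, 183 and 177 CPM with DMSO and 245, 238 and 245 CPM with MYCi975 (log2 fold change 0.41, SE 0.0432, adjusted p = 2.4e-10), and EBI3 (6.30, 5.40 and 6.14 against 10.2, 11.2 and 9.68 CPM) and CXCL10 (2.81, 2.78 and 2.56 against 5.73, 4.05 and 5.69 CPM) rose at lower levels. Of 34 interferon-stimulated genes 6 rose and 5 (3 with TMM factors, 3 without DMSO replicate 1 or MYCi975 replicate 1 or 3) fell. The antiviral GTPase MX1 fell (21.1, 25.5 and 23.6 CPM with DMSO and 15.5, 12.6 and 10.6 CPM with MYCi975, log2 fold change −0.83, SE 0.107, adjusted p = 6.87e-08), SAMD9L (−0.61) and IFI44L (2.52, 2.29 and 2.97 against 1.28, 0.888 and 0.899 CPM) fell, and the RNA sensor IFIH1 rose (8.63, 6.39 and 8.18 against 11.2, 12.8 and 12.6 CPM, 0.60), as did PARP14 (0.34) and IRF1 (0.27). Of 19 AP-1 and EGR genes 4 rose and 0 (1 without DMSO replicate 3 or MYCi975 replicate 3) fell, ATF3, NR4A1 (0.46), JUND (0.26) and IER5 (0.18) being the rises. For feedback on MAP kinases 5 (3 without DMSO replicate 1 or 2 or MYCi975 replicate 2) of 16 rose and 1 (2 without MYCi975 replicate 3) fell, led by SPRED1 (18.8, 19.9 and 20.3 against 29.3, 30.9 and 29.4 CPM, 0.58). Of 24 PI3K, mTOR and insulin genes 3 (5 with TMM factors, 1 without DMSO replicate 1 or 2) rose and 4 fell, both near the shares over all genes. MTOR (−0.22), RPS6KB1 (−0.31) and PRKAA1 (−0.29) were down.

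Single regulators of cell death rose or fell. Of 18 genes of the BCL2 family 4 rose and 4 (2 with DESeq2, 2 without DMSO replicate 1 or MYCi975 replicate 1) fell. Over all genes 10.6% rose and 18.0% fell, so the falls lie near that share. BIK, a BH3-only killer, was at 13.1, 11.8 and 11.7 CPM with DMSO and 6.93, 5.63 and 6.19 CPM with MYCi975 (log2 fold change −0.86, SE 0.126, adjusted p = 4.96e-07). BCL2L11, the BIM protein, was at 125, 122 and 130.1 CPM with DMSO and 101.02, 103 and 105 CPM with MYCi975 (log2 fold change −0.28, SE 0.0491, adjusted p = 1.36e-05). BCL2, the survival protein, was at 3.68, 5.32 and 4.60 CPM with DMSO and 8.81, 6.71 and 9.58 CPM with MYCi975 (log2 fold change 0.76, SE 0.15, adjusted p = 0.0001). The first pair was lower and BCL2 higher in all MYCi975 libraries. BNIP3L (52.6, 56.2 and 46.96 against 87.6, 85.9 and 110.2 CPM, 0.85) and BNIP3 (72.99, 68.2 and 62.4 against 101.36, 96.4 and 103 CPM, 0.56), mitophagy receptors that also stand on the hypoxia list, rose. MCL1 fell on CPM only (−0.13), with no call with TMM factors or without any one of 5 libraries. Of 29 FOXO, KLF and quiescence-linked genes 9 (5 without DMSO replicate 2) rose and 4 fell, with TSC22D3, the GILZ protein, at 11.7, 14.98 and 11.97 against 21.98, 20.6 and 23.8 CPM (0.74), PDCD4 (0.24) and BTG1 (0.23) up and TOB1 (−0.31) and KLF2 (−0.24) down.

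Noncoding RNAs were measured with a kit that captures exons of coding genes, so their levels depend on the probes and reads that reach them. Of 24 long noncoding RNAs 4 rose and 2 (1 with TMM factors, 1 without DMSO replicate 1 or MYCi975 replicate 2) fell. Of all genes 10.6% rose and 18.0% fell. MALAT1, a nuclear RNA, was at 2577, 2369.9 and 2496 CPM with DMSO and 2933, 3307 and 3374 CPM with MYCi975 (log2 fold change 0.37, SE 0.042, adjusted p = 7.11e-08), and LINC-PINT (0.38) and LINC00657, the RNA NORAD (0.14), rose. RN7SK, which holds the elongation factor P-TEFb inactive, was at 11487, 12232 and 12054 CPM with DMSO and 13956, 12959 and 14049.5 CPM with MYCi975 (log2 fold change 0.20, SE 0.0332, adjusted p = 9.62e-06). BCYRN1, a small cytoplasmic RNA related to Alu repeats, fell (75.2, 77.6 and 89.1 CPM with DMSO and 34.5, 40.2 and 39.8 CPM with MYCi975, −1.06), and repeats of its sequence make the value uncertain. The groups of these 3 RNAs did not overlap.

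Among single genes, the 15 largest rises among genes of at least 5 CPM included STC2, a secreted glycoprotein on the hypoxia list (7.66, 5.24 and 4.71 against 16.1, 17.1 and 18.97 CPM, 1.44). Others, on none of the lists, were ALPK2 (4.36, 3.28 and 3.99 against 10.01, 11.8 and 9.88 CPM), TOX2 (3.10, 4.42 and 3.48 against 8.13, 7.30 and 9.29 CPM), a transcription factor, ATP4A (3.10, 3.68 and 3.17 against 7.95, 6.22 and 7.59 CPM), of the gastric proton pump, and SYTL1 (6.40, 8.27 and 4.71 against 11.5, 13.03 and 14.3 CPM), with log2 fold changes of 1.25, 0.99, 0.93 and 0.92. The 15 largest falls included PPP1R3A, which directs a phosphatase to glycogen (15.1, 15.97 and 15.1 CPM with DMSO and 5.56, 6.22 and 4.19 CPM with MYCi975, log2 fold change −1.39, SE 0.128, adjusted p = 9.37e-12). HPDL (50.9, 48.6 and 50.03 against 30.02, 28.8 and 30.6 CPM, −0.72), MYOF (29.8, 31.6 and 30.2 against 20.2, 18.1 and 17.4 CPM, −0.69) and GUCY1B3, a subunit of soluble guanylate cyclase (7.37, 5.98 and 6.75 against 3.76, 3.06 and 3.10 CPM, −0.84), were among them, with no overlap of the groups in any. 3 of the 15 falls were entries with no gene name.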

How the data were processed

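RNA of 6 P493-6 samples was made into strand-specific libraries with an exon capture kit, per the labels' protocols. STAR, HTSeq and edgeR and the build hg38 stand in the submitters' processing notes, with no version in the sources used here. The authors deposited CPM per gene and library, beside their own log2 fold changes, p-values and a score that marks each gene as up or down, per the file headers. In every library 100% of CPM values were a whole number of reads within 0.05 reads, and the recovered reads were used for the count tests.

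CPM values were tested as log2(CPM + 1) with limma 3.58.1 (trend and robust), 3 against 3 libraries, with Benjamini-Hochberg adjustment over 12998 genes. An exact permutation test of 3 against 3 could not go below p = 0.1. No row was filtered. Alternatives were TMM factors, a median set to 0, edgeR 4.0.16 and DESeq2 1.42.0 on recovered reads, pseudocounts of 0.1 and 5, a mean of at least 5 CPM, a threshold of 0.01, a replicate block, and each library left out. A fit without the most abundant entry was added after seeing the data. On simulated data with libraries of these depths limma recovered 36%, 62%, 88% and 98% of genes changed by 0.25, 0.5, 1 and 2 on the log2 scale.

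The members and all 60 gene lists (1740 of 1862 genes measured) were chosen with earlier results of these data known. Genes named are MYC and MAX, the 15 largest rises and falls at 5 CPM or more without overlap, the 10 called genes of highest level, and from each list all members (15 or fewer measured) or up to 6 called per direction (the 2 of smallest p where none was called). Promoters came from RefSeq, and lists with under 80% of genes matched were void. The authors' deposited table marks 1373 genes up and 1236 down, of which 1274 and 1232 were called the same way here. Some genes and 1 list are not reported here.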

Additional observations from a re-analysis of the deposited data

How the results depend on the processing

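The 3713 calls on CPM compare with 2447 by DESeq2 (1177 falls) and 2460 at an adjusted p below 0.01 (908 rises and 1552 falls). Other settings gave 3502 calls (edgeR), 3530 (median at 0) and 3742 (without the most abundant entry, which held 2.07% to 3.68% of reads). Leaving out 1 library gave 2976 to 3281 calls, 1104 to 1270 rises and 1872 to 2124 falls. Rises made 37.0% of calls on CPM and 51.8% with TMM factors. Of 448 called genes among 504 that the rule names, 345 kept their call under every alternative and none reversed. 31 lost it with TMM factors, 68 with DESeq2 and 34 to 44 without 1 library. DESeq2 moved 38 of 120 list counts by over 1.5 times, and TMM factors 22. DESeq2 lowered the falls of mitochondrial ribosomal proteins from 43 to 24, nucleolar assembly from 55 to 34, the respiratory chain from 25 to 13, helicases and nuclear transport each from 31 to 19, homologous recombination from 15 to 7, the TCA cycle from 13 to 6, RNA polymerase III and lysosomal genes each from 10 to 4, purine genes from 10 to 5, NRF2 targets from 7 to 2 and mitochondrial synthetases from 6 to 2. The summed level of NRF2 targets changed by −2.67% on CPM, by 0.447% with TMM factors and by 0.108% with the median at 0. Depth limits genes at a few CPM: from 1 to 5 CPM 4.35% rose and 4.58% fell.

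Same-numbered libraries did not deviate together (correlations of −0.088, −0.055 and −0.112 over 9950 genes), so the numbers do not pair them. With the replicate number as a block 3274 genes were called, 1214 that rose and 2060 that fell, and MYC had an adjusted p of 0.0999.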

Other observations

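Over all genes 10.6% rose and 18.0% fell. By the biotype of the annotation, 12 antisense genes rose (2.43%) and 43 fell (8.70%). Of 87 small nucleolar RNAs 15 rose (17.2%) and 4 fell (4.60%). Of 537 pseudogenes 31 rose (5.77%) and 16 fell (2.98%). Of 373 long intergenic noncoding RNAs 17 rose (4.56%) and 29 fell (7.77%). Among these shares only the rises of small nucleolar RNAs exceeded that over all genes.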
